A study of Mus musculus with 6 samples.

Results

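CD4 T cells are rare in the mouse brain, and the cells described here are the 214 that the authors' deposited annotation calls CD4+, of 13052 cells in all (72 from young and 142 from aged brains). No value was used to pick them other than that annotation, and how the authors assigned it is not given in the sources used here. They were set beside the 728 cells annotated CD8+ (106 young, 622 aged) and the 330 annotated ILCs, innate lymphoid cells (155 young, 175 aged). The mice were female C57BL/6, either young (12 weeks) or aged (72 weeks), and their brains were perfused, digested and enriched for mononuclear cells on a density gradient. Control mice received vehicle and kept an unperturbed gut microbiota, and antibiotic mice had it depleted; the agents are not given in the sources used here. Per the labels, 24 brains (6 per group) were collapsed into 12 pools, 3 per group: control and antibiotic pools of young mice and the same of aged mice. Each pool carried 1 hashtag, an antibody barcode that marks the pool of origin. All young pools ran in 1 droplet well and all aged pools in another, so age and well cannot be told apart. Control pools carried hashtags 1 to 3 and antibiotic pools hashtags 4 to 6, so hashtag and arm cannot be told apart either.

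A CD4 T cell recognises peptide shown on MHC class II molecules through its T cell receptor (TCR), which signals through the CD3 chains, while the CD4 protein holds on to the MHC molecule itself. Helper cells then act on other cells through membrane proteins such as CD40 ligand and through secreted cytokines, and Foxp3-expressing regulatory T cells restrain them. Naive T cells recirculate through lymph nodes with the help of receptors such as Ccr7 and S1pr1, whereas memory cells can enter and stay in tissues such as the brain and its borders.

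Each antibody in the study carried a DNA barcode that was counted as a tag in the same droplet as the RNA. The barcodes that carry the identity of this class are shown first, since every tag count below is a count of one of these 15-base sequences. Capitals mark the bases at which a barcode differs from that of the CD4 antibody.
CD4: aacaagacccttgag
CD8a: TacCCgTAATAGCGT
CD3: GTATGTCcGctCgaT
CD25: aCcaTgaGAcACAGT
CD90.1: aGTaTgGGATGCAaT
The CD8a barcode differs from the CD4 barcode at 12 of the 15 bases, CD3 at 10, CD25 at 9 and CD90.1 at 11. CD90.1 is an allele of Thy-1 that C57BL/6 mice do not carry, so its tag shows the unspecific level of that 1 antibody. CD4+ cells held a mean of 0.528 such tags per cell in the young well and 0.127 in the aged well. The level differs by antibody. Young microglia held means of 3.87 CD4 and 4.10 CD8a tags per cell, against 0.598 CD90.1 tags.

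The CD4 tag separated the class from the CD8+ cells without overlap in either well. In the young well, CD4+ cells held from 91 to 1858 CD4 tags (median 697), whereas no CD8+ cell held more than 56. In the aged well they held from 24 to 394 (median 113), and no CD8+ cell held more than 16. The CD8a tag ran from 43 to 1510 in young CD8+ cells (median 494.5), against a median of 5 in young CD4+ cells, whose maximum of 90 lay above the lowest CD8+ cells. The tag of CD3, the signalling partner of the receptor, ran from 50 to 431 in young CD4+ cells and reached no more than 43 in young ILCs. A few cells of the ILC class carried the CD4 tag, up to 557 in the young well and 87 in the aged well.

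**Figure D1:**
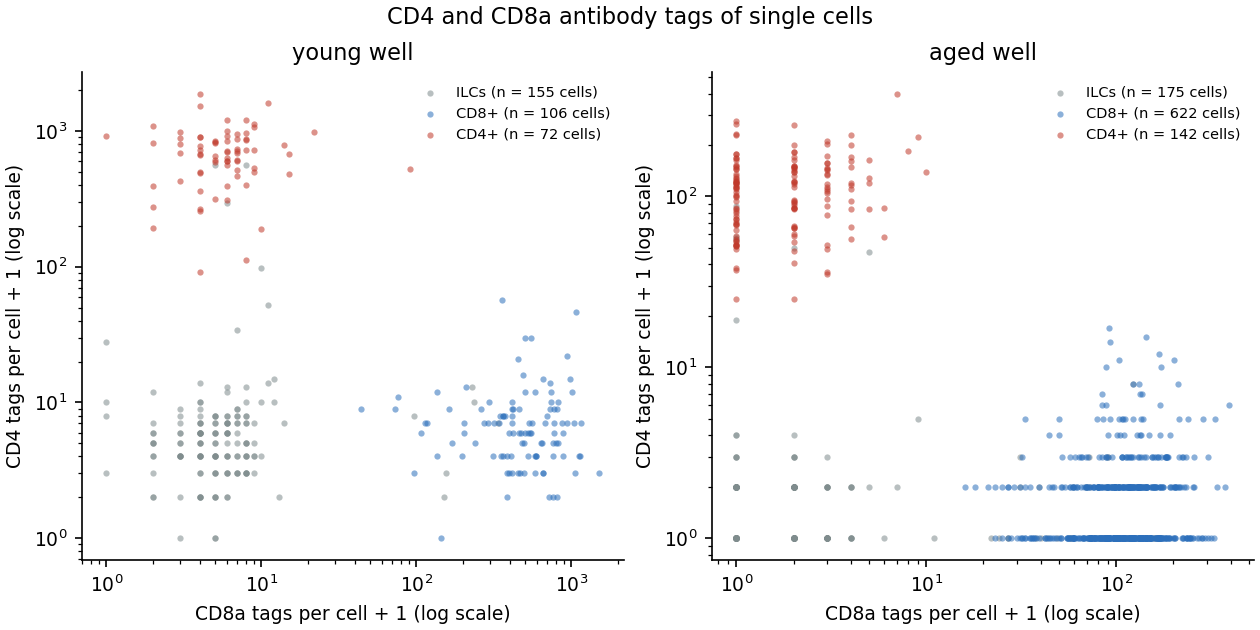
CD8a tags (x axis) against CD4 tags (y axis) of single cells, each plotted as the count + 1 on log scales, for CD4+ (red), CD8+ (blue) and ILC (grey) cells of the young well (left) and the aged well (right). The 214 CD4+ cells form 1 cloud in the upper left of each panel, above every CD8+ cell, and a few grey ILCs lie within or near the CD4+ cloud. Other ILCs, most of them aged, reach the CD8a counts of CD8+ cells.

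The RNA values are corrected UMI values (a UMI marks 1 captured RNA molecule), which the authors' SCTransform step scaled for depth. RNA of at least 1 TCR-complex gene was above 0 in 213 of the 214 cells. The 4 markers Cd3e, Cd4, Cd40lg and Icos were all above 0 in 34 cells, 3 of them in 86, 2 in 55, 1 in 33 and none in 6. Cd8a or Cd8b1, the CD8 chains, was above 0 in 9 cells. Cd4 RNA itself was above 0 in 51.4% of young cells (exact 95% interval 39.3 to 63.4%) and 59.2% of aged cells (50.6 to 67.3%), although every one of these cells held the CD4 tag. Microglia, which should lack it, had Cd4 RNA above 0 in 0.0397% (young) and 0.252% (aged) of cells at median raw depths of 6809 and 7118 UMIs. Intervals of this kind cover counting error only. Since the authors may have used these same tags and genes to name the class, these values describe the class and are no independent test of its label.

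Depth differed between the wells far more for tags than for RNA. The median CD4+ cell held 6883.5 raw UMIs in the young well and 5568.5 in the aged well, and 3393 against 480.5 antibody tags. Over the CD4+ cells of a pool, raw UMIs summed to between 53133 and 380245 and tags to between 5079 and 151731. Tag levels were therefore compared only within a well. A total of 59 barcode sequences occurred in both wells, 1 of them of a CD4+ cell, and none was CD4+ in both.

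A group of 19 CD4+ cells (8.88%) stood apart from the others. In the authors' RNA clustering 182 cells lay in cluster 2 (55 young, 127 aged) and these 19 in cluster 3, which were 13 of the 72 young cells (18.1%) and 6 of the 142 aged cells (4.23%). A further 13 lay elsewhere (4 young, 9 aged). The cluster 3 cells held RNA of the MHC class II genes H2-Aa, H2-Ab1, H2-Eb1 and Cd74, which antigen-presenting cells use to show peptide, at a mean sum of 404 per young and 428.5 per aged cell, against 0.709 and 0.606 in cluster 2. Lyz2, a lysozyme of myeloid cells, averaged 25.8 and 36 in them, against 0.309 and 0.386. They nonetheless held TCR-complex RNA at a mean sum of 23.6 and 18.5, against 40.9 and 36.6 in cluster 2. On their surface they carried a mean of 566 (young) and 45.8 (aged) tags of CD11c, 3276 and 316 of I-A/I-E (MHC class II) and 2237 and 347 of CD11b, beside 716 and 180.5 CD4 tags. In cluster 2 the CD11c means were 5.11 and 0.913. The median cluster 3 cell held 19410 and 19592 raw UMIs, against 6168 and 5402 in cluster 2. The authors' metadata list each of the 13052 cells as a singlet, and whether these droplets held 1 cell or more was not tested. Cells outside cluster 2 made up from 0 to 42.9% of a pool's CD4+ cells, so each tested result below was also computed from cluster 2 cells alone, an alternative chosen after seeing the data.

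**Figure D2:**
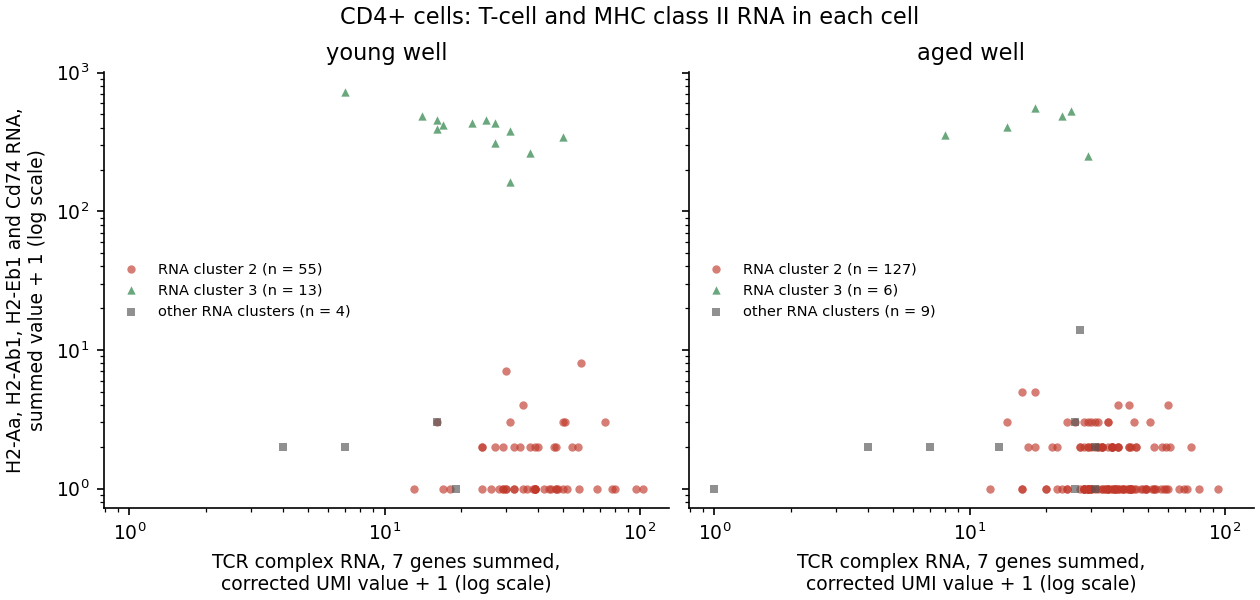
Summed RNA of 7 TCR-complex genes (x axis) against summed RNA of 4 MHC class II pathway genes (y axis) in each CD4+ cell, as corrected UMI value + 1 on log scales, for the young well (left, 72 cells) and the aged well (right, 142 cells). The cells of RNA cluster 3 (green triangles, 13 young and 6 aged) lie far above the cluster 2 cells (red circles) on the MHC axis while lying within or just below their range on the TCR axis.

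Against CD8+ cells, the CD4+ class held more RNA of helper genes such as Cd40lg and Tnfrsf4 and less of several natural killer receptor genes. Since the class may have been named from values of these same cells, levels are given as a description with no test. A gene was counted where its mean differed at least 2-fold in the same direction in both wells and reached at least 0.25 in the higher class. Of 3416 genes that reached this level, 30 (0.878%) were higher in CD4+ than in CD8+ cells and 24 (0.703%) were lower. Cd40lg, which encodes CD40 ligand, averaged 0.889 per young and 0.986 per aged CD4+ cell, against 0.0377 and 0.0209 in CD8+ cells. Tnfrsf4, which encodes the co-stimulatory receptor OX40, averaged 0.889 and 1.10 against 0.0755 and 0.0273. Both were higher in CD4+ cells in 11 of the 11 pools with at least 5 CD4+ cells (young control 2, with 4 cells, is left out of all pool counts). Izumo1r, the folate receptor 4 of regulatory and activated CD4 cells, averaged 0.444 and 0.606 against 0.132 and 0.0305, and Capg, an actin-capping protein, 2.43 and 1.06 against 0.274 and 0.288; both were higher in 11 of 11 pools. Trat1, a TCR adaptor, and Slamf1 were higher in 10 of 11 pools, and Tnfsf11 (RANK ligand), Hif1a and Tnip3 in 9. The growth factor gene Areg passed the same rule in the well means but was higher in only 4 of 11 pools, and Retnla in 3, so these came from few cells.

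The genes lower in CD4+ than in CD8+ cells were led by the CD8 chains. Cd8a averaged 0.0139 and 0.00704 in CD4+ cells against 3.88 and 4.09. The natural killer receptor genes Cd160, Klrc1 and Klrd1, and Ly6c2, Crtam and Cd7, were lower in 11 of 11 pools. Gzma, encoding granzyme A, averaged 0.75 and 0.0352 against 5.63 and 0.270 and was lower in 9 pools. The haemoglobin genes Hba-a1, Hba-a2 and Hbb-bs also passed, in 8 to 9 pools; they mark red cells, and the mean of Hbb-bs in young CD8+ cells was 44.2 against 2.12 in aged ones.

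Several genes tied to cytotoxic T cells were present in both classes at different levels. Ccl5, a chemokine of memory and effector T cells, averaged 17.8 and 33.0 in CD4+ cells and 57.5 and 75.7 in CD8+ cells. Nkg7, a granule protein, averaged 4.74 and 5.29 against 13.0 and 13.5. Ifng, the interferon-gamma gene, was nearly level, at 1.28 and 1.92 against 1.30 and 1.81. Icos, a co-stimulatory receptor, was higher in CD4+ cells, at 1.79 and 2.41 against 0.934 and 0.772, as was the inhibitory receptor gene Ctla4, at 1.57 and 1.77 against 0.443 and 0.672.

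Against the ILCs, 47 of 3526 genes (1.33%) were at least 2-fold higher in CD4+ cells in both wells and 59 (1.67%) were lower. Besides Cd4, Cd40lg and Tnfrsf4, the higher genes included Cd5, a brake on TCR signalling (1.49 and 1.40 against 0.0323 and 0.154), Ctla4 (against 0.245 and 0.206), Cd6, Slamf6 and S1pr1. All of these except Ctla4 were higher in 11 of 11 pools. Among the lower genes were several of natural killer cells, with Gzma (against 24.1 and 11.1), Ncr1, which encodes NKp46 (0 and 0.0211 against 3.69 and 1.26), Klrb1c, Klra4, Klra8, Klre1 and Gzmb. The 12 with the largest difference also held Spry2, Ly6d and Nrgn, which are not natural killer genes. Ly6d was lower in CD4+ cells in only 5 of 11 pools, and Klra4 and Klra8 in 9. The other lower genes named here were lower in 10 or 11 pools. The ILC class as annotated thus held RNA of these natural killer genes, and in the aged well it also held Cd3e at a mean of 1.02. Its aged cells also held CD8a tags at a mean of 22.9 per cell, but the median was 1 and the highest count 158, so the mean came from a part of them.

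Beyond CD4 and CD8a, smaller differences in tags ran in the same direction in most pools. CD44, an adhesion receptor that is high on memory T cells, was 1.60 times as high in CD4+ as in CD8+ cells in the young well and 1.78 times in the aged well, and higher in 10 of 11 pools. CD3 was 1.23 and 1.33 times as high, also in 10 of 11 pools. Ly6C was lower, at 0.713 and 0.681 of the CD8+ level, and higher in only 1 of 11 pools. NK1.1 was at 0.933 and 0.779 of the CD8+ level, and CD45 at 0.973 and 0.789; NK1.1 was higher in CD4+ cells in 1 of 11 pools and CD45 in 2. CD11b was 2.62 and 1.19 times as high over all cells, and higher in 9 of 11 pools. Among cluster 2 cells of both classes its ratios were 0.954 and 0.697, so it was not higher in CD4+ cells there. PD-1, an inhibitory receptor of stimulated T cells, had ratios of 1.02 and 1.01 over all cells of a well, but its CD4+ mean was higher in only 1 of 11 pools. The aged CD4+ mean of PD-1 was raised by aged antibiotic 2, at 7.16 tags per cell against 1.25 to 3 in the other aged pools. CD25, the interleukin-2 receptor alpha chain, and CD103, an integrin of tissue-resident cells, gave ratios that differed between wells, 5.68 and 1.43 for CD25 and 1.56 and 0.283 for CD103. CD25 was higher in CD4+ cells in 7 of 11 pools and CD103 in 2, and the young CD103 mean was raised by young antibiotic 1, at 95.4 tags per CD4+ cell against 2 to 25.7 in the other young pools.

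The few cells with Foxp3 RNA held more CD25 tags on average than the other CD4+ cells. Foxp3, the transcription factor of regulatory T cells, was above 0 in 10 CD4+ cells, 7 of 72 young (9.72%, exact 95% interval 4.00 to 19.0%) and 3 of 142 aged (2.11%, 0.438 to 6.05%). It was above 0 in no CD8+ cell and no microglial cell. By pool these were 1, 1 and 0 cells in young control, 4, 0 and 1 in young antibiotic, none in aged control, and 0, 2 and 1 in aged antibiotic. All 10 also held RNA of Ikzf2 (Helios), against 16.7% of the other CD4+ cells, and 8 held Il2ra, which encodes CD25, against 6.86% of the others. Their mean CD25 tag count was 90.6 in the young well, against 1.75 in the other young CD4+ cells, and 7 against 0.540 in the aged well. Within cluster 2, which held 4 of the 7 young and all 3 aged cells with Foxp3 RNA, the young means were 80.25 and 1.61. Cells with RNA of Itgae, the CD103 gene, likewise held more CD103 tags, 219.5 (n = 8 cells) against 17.4 (n = 64) in the young well and 13.5 (n = 4) against 0.877 (n = 138) in the aged well.

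Other tags followed their genes less sharply. Cells with Cd4 RNA held a mean of 815 CD4 tags against 597 in cells without it in the young well, and 129 against 97.1 in the aged well. For PD-1 and its gene Pdcd1 the means were 26.5 against 10.95 (young) and 5.27 against 3.30 (aged), and for CD44 and Cd44 they were 480 against 309 and 70.2 against 49.6. Cells rich in RNA of any kind tend to be above 0 for more genes, and depth was not matched in these comparisons.

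Genes of the other helper programmes were present to different extents. At least 1 gene of the Th1 list was above 0 in 83.3% of young and 83.8% of aged cells, of the Th2 list in 40.3 and 29.6%, of the follicular helper list in 25 and 28.9%, and of the Th17 list in 0 and 5.63%. In CD8+ cells the shares were 88.7 and 94.5% for Th1, 24.5 and 24.6% for Th2, and 21.7 and 39.7% for follicular helper. For Th17 they were 0 and 0.161%. In ILCs they were 89.0 and 69.7% for Th1, 34.8 and 56% for Th2, and 20.6 and 21.1% for follicular helper. The Th17 shares were 3.87 and 2.29% in ILCs and 9.43 and 9.88% in B cells. None of these lists was thus particular to CD4+ cells. The signature cytokines themselves were rare. Il17a, the signature cytokine of Th17 cells, was above 0 in 5 cells, all aged. Il4 was above 0 in 8 cells and Il21 in 4, and Il13 was at 0 in all 214. Ccr7, the lymph node homing receptor, was above 0 in 20 cells, 13 young and 7 aged, of which 17 lay in cluster 2. In the young well it averaged 1.08 in cluster 3 and 0.473 in cluster 2 cells. Of these 20, 2 held Ccl5 (10%), against 66.5% of the remaining CD4+ cells, and in cluster 2 alone the shares were 11.8 and 65.5%. Gzmk, which encodes granzyme K, was above 0 in 62 cells, and 90.3% of those held Ccl5, against 49.3% of the cells without Gzmk. Eomes, a T-box transcription factor of memory and cytotoxic lymphocytes, was above 0 in 28 cells, and 25 of them were among the 62 with Gzmk. Gzmk was above 0 in 1 of the 10 cells with Foxp3 and in 2 of the 20 with Ccr7, against 29.9 and 30.9% of the cells without them. Most cells with Foxp3 or Ccr7 were young and most with Gzmk aged, and within the aged well Gzmk was above 0 in 28.6% of cells with Ccr7 and 40% of the others.

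CD4+ cells as a share of the cells of a pool varied as much within groups as between them. They were 1.24, 0.526 and 1.16% in young control pools and 3.21, 0.782 and 0.377% in young antibiotic pools. In aged control pools they were 1.01, 2.86 and 1.51%, and in aged antibiotic pools 1.62, 3.61 and 1.89%. The exact 95% intervals of single pools were wide, from 0.144 to 1.34% for the 4 cells of young control 2 and from 2.69 to 4.73% for the 50 cells of aged antibiotic 2. Group means were 0.974 ± 0.390, 1.46 ± 1.53, 1.79 ± 0.957 and 2.37 ± 1.08% (SD, n = 3 pools each). Young control and aged antibiotic pools did not overlap, and every other pair of groups did. By edgeR's quasi-likelihood test the aged minus young difference was 0.81 on the log2 scale (SE 0.52, adjusted p = 0.283 over 10 cell types). The exact two-sided permutation test gave a difference of 0.868 percentage points and p = 0.158. Without the pool young antibiotic 1, the highest young pool, the log2 difference was 1.46 with an adjusted p of 0.0402 in edgeR, so that 1 pool decided this call. Antibiotic minus control was 0.45 (SE 0.52, adjusted p = 0.768; exact p = 0.37 with pools arranged within each age). The difference of the antibiotic effect between ages was -0.08 (SE 1.02, adjusted p = 0.962).

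The balance of CD4+ and CD8+ cells did differ with age. Of every 100 cells of both classes together, CD4+ cells made up 34.04, 44.4 and 45.2 in young control pools and 55.6, 31.8 and 25 in young antibiotic pools. In aged control pools they made up 13.8, 24.4 and 14.2, and in aged antibiotic pools 10.9, 31.25 and 13.0. The lowest young pool, at 25, lay below the highest aged pool, at 31.25, and every other young pool lay above all aged pools. The log2 ratio of CD4+ to CD8+ cells was lower by a mean difference of -1.64 in aged pools (exact two-sided permutation p = 0.00433, 6 pools against 6, smallest possible 0.00216). From cluster 2 cells alone the difference was -1.46 (exact p = 0.00866). The share of CD8+ cells in a pool was itself higher with age, by 2.54 on the log2 scale (edgeR, SE 0.34, adjusted p = 3.07e-05). Antibiotic minus control was -0.13 for the ratio (exact p = 0.765).

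**Figure D3:**
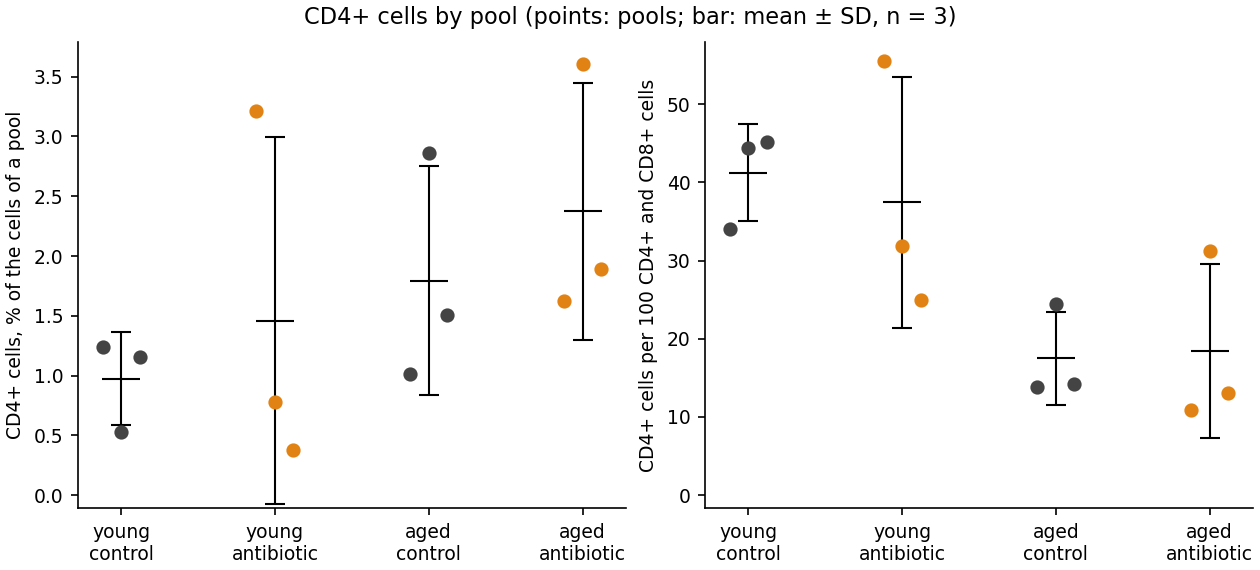
CD4+ cells as percent of all cells of a pool (left) and per 100 CD4+ and CD8+ cells (right), by group; points are pools (n = 3 per group), and lines are the mean ± SD. The shares on the left overlap between groups except young control and aged antibiotic, with the pool young antibiotic 1 at 3.21% far above the other young pools, while on the right young pools lie between 25 and 55.6 and aged pools between 10.9 and 31.25.

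Gzmk and Eomes showed the largest rises with age among the genes that passed the test in CD4+ cells. The mean RNA value over a pool's CD4+ cells was compared between 6 aged and 5 young pools, as log2 of the value + 0.05, with limma, pools weighted by their cells and arm as a covariate. Of 6317 genes with a mean of at least 0.1, 11 (0.174%) were higher and 19 (0.301%) were lower in aged pools at an adjusted p under 0.05, and 563 had an unadjusted p under 0.05. The median over all genes was -0.09. Labels do not say how brains were combined within a pool, and p-values measure the spread between pools. From cluster 2 cells alone (9 pools, 3 young and 6 aged) 12 genes passed, 4 higher and 8 lower, 11 of them among the 30, and all 27 of the 30 that could be tested there kept their direction.

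Gzmk averaged 0 to 0.571 per cell in young pools (median 0.08) and 0.6 to 2.2 in aged pools (median 1.37), without overlap. The log2 difference was 3.54 (SE 0.42, limma adjusted p = 2.74e-05), and 3.88 from cluster 2 cells alone. It was above 0 in 8.33% of young cells (exact 95% interval 3.12 to 17.3%) and 39.4% of aged cells (31.3 to 48.0%), against 0 and 0.436% of microglia. Young CD8+ cells already held more, a mean of 0.915, and aged ones 2.74, with pool means of 0.111 to 1.71 and 2.54 to 3.03. Eomes was at 0 in 4 of the 5 young pools and at 0.429 in young antibiotic 2, where it came from 1 cell, and lay between 0.444 and 1.15 in aged pools. Its log2 difference was 3.30 (SE 0.46, adjusted p = 0.00013), and 3.77 from cluster 2 cells alone. That second fit left out young antibiotic 2, which held 4 cluster 2 cells, and Eomes was at 0 in the young pools it kept. Gzmk, Eomes and Igkc were the 3 named genes that stayed past the threshold in all 19 alternatives in which they were tested, with highest adjusted p-values of 0.0162, 0.0253 and 0.0370.

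Because Eomes is a T-box factor and rose beside Gzmk, the 250 bases before the annotated start of Gzmk are shown from RefSeq (build GRCm38.p6, chr13:113180966-113181215, minus strand, upstream of the gene and outside its exons). Capitals mark the T-box core GTGTGA, searched on both strands.
Gzmk: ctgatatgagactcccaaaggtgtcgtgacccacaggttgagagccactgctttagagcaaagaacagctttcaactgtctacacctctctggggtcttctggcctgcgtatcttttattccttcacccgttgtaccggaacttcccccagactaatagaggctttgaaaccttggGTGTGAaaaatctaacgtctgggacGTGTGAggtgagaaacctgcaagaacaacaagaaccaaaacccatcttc
The core occurs 2 times, beginning 74 and 49 bases before the start. Of 32851 windows of the same length in the RefSeq table, 12.3% held it at least 1 time and 0.998% at least 2 times. The same window of Eomes (chr9:118477939-118478188, plus strand) held none. These are matches of letters, and no binding was measured.

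Of the cytotoxic list, 2 of 8 tested genes rose (Gzmk and Eomes) and none fell, with a list median of 0.68 on the log2 scale against -0.09 for all genes. Ccl5 (0.84, adjusted p = 0.477), Prf1, the perforin gene (1.02, adjusted p = 0.655), and Nkg7 (0.07, adjusted p = 0.97) did not pass, nor did Gzma (-1.06, adjusted p = 0.745) and Gzmb (-0.95, adjusted p = 0.722). Tnfsf8, which encodes CD30 ligand, a membrane signal of activated T cells, averaged 0 to 0.4 in young pools and 0.6 to 2.13 in aged pools, without overlap. Its log2 difference was 2.16 (SE 0.43, adjusted p = 0.0151), with an adjusted p of 0.0533 from cluster 2 cells alone. Its CD8+ levels were 0.189 (young) and 0.214 (aged). Tspan3, a tetraspanin, averaged 0 to 0.2 and 0.333 to 0.86 (2.45, adjusted p = 0.0051, and 0.0519 from cluster 2 cells alone). In CD8+ cells its pool means were 0 to 0.290 (young) and 0.392 to 0.557 (aged), also without overlap. Bcl2, which protects lymphocytes from apoptosis, had a median of 3.31 in young and 6.34 in aged pools with overlapping ranges (0.84, adjusted p = 0.0183), and the stress-induced Gadd45b was higher by a log2 difference of 1.13 (adjusted p = 0.0383). From cluster 2 cells alone neither passed (adjusted p = 0.255 and 0.173). The ribosomal genes Rps21 (0.44) and Rps27 (0.40) also passed, but not from cluster 2 cells alone (adjusted p = 0.0519 and 0.102). In CD8+ cells the pool means of Rps21 were 29.9 to 33.8 (young) and 37.3 to 41.2 (aged). Those of Rps27 were 37 to 48 and 49.5 to 55.8, so neither gene overlapped between ages there. The CD8+ pool means of Bcl2 and Gadd45b did overlap. Gadd45b, Rps21 and Rps27 each lost the call in 11 of 19 alternatives.

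Igkc, an antibody light chain gene of B cells, also rose, from 0 to 0.16 in young pools to 0.333 to 1.28 in aged pools (3.06, SE 0.42, adjusted p = 0.00013). It moved in the same way in cells that do not make antibody, from a mean of 0.106 to 0.916 in microglia and from 0.0452 to 2.27 in ILCs. Of the B cell markers, Ms4a1 was at 0 in all CD4+ cells, and the summed marker level was 0.625 to 2.67 in young and 1.2 to 2.11 in aged pools. The part of free RNA in the Igkc result was not tested.

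The 19 genes that fell with age held markers of other cells. H2-Ab1 averaged 9.94 to 14.0 in young pools and 0.222 to 4.87 in aged pools (-2.44, SE 0.53, adjusted p = 0.0244), and Mgl2, a lectin of dendritic cells and macrophages, fell by 2.69 (adjusted p = 0.0231) and the protease gene Napsa by 1.90 (adjusted p = 0.0432) on the log2 scale. All 3 were below the level needed for a test in cluster 2 cells alone, where no pool averaged more than 0.25 for H2-Ab1. S100a9, a neutrophil gene, fell from 0.5 to 1.71 in young pools to 0.0556 to 0.3 in aged pools (-2.15, adjusted p = 0.0051), while microglia went from 4.14 to 0.730. CD8+ pool means of S100a9 were 0.333 to 56.1 (young) and 0.189 to 0.292 (aged). Cst3, which is abundant in microglia (278 young, 244 aged), had a median of 21.5 in young and 5.73 in aged pools (-1.57, adjusted p = 6e-05), and fell by 1.62 in cluster 2 cells alone. Of the microglial list 2 of 8 genes passed, Cst3 and C1qb, both lower, and all 8 were negative (median -0.87).

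The summed levels of these marker lists differed in the same direction between the wells. The 8 microglial markers summed to 18.9 to 59.7 per CD4+ cell in young pools and 7 to 16.3 in aged pools, the 5 dendritic cell markers to 36.8 to 50.6 and 0.5 to 17.0, the 5 monocyte and macrophage markers to 3 to 60.1 and 1.1 to 8.74, and the 5 neutrophil markers to 1 to 3 and 0.111 to 0.55. In cluster 2 cells alone the microglial sums overlapped, at 9.73 to 29.6 (young) and 6.37 to 11.2 (aged). So did the dendritic sums, at 0.364 to 0.85 and 0.308 to 1. The neutrophil sums still did not overlap, at 1.6 to 2.09 and 0.111 to 0.579. The monocyte sums did not either, at 3 to 5 and 0.25 to 1.44, but Ly6c2 (1.95 to 2.62 and 0.125 to 0.778) and Plac8 (0.455 to 2.70 and 0.0714 to 0.421), which T cells also express, made up much of them. The part of other cells' RNA in these falls was not tested.

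Several genes that fell are known from T cells as well as from myeloid cells. Of the 4 tested genes of the monocyte and macrophage list, 2 fell, Ly6c2 and Plac8. Ly6c2, which encodes the Ly6C antigen carried by a memory subset as well as by monocytes, had a median of 2.07 in young and 0.38 in aged pools (-2.13, SE 0.36, adjusted p = 0.00269), and -2.31 from cluster 2 cells alone. Its ranges overlapped through young antibiotic 3, at 0.5, a pool that the fit from cluster 2 cells alone left out. In CD8+ cells the pool means of Ly6c2 were 2.65 to 9.2 (young) and 1.2 to 3.18 (aged). Actn1, an actin cross-linker, averaged 0.143 to 0.429 in young and 0 to 0.0667 in aged pools (-2.46, adjusted p = 0.0183; 0.101 from cluster 2 cells alone). Plac8, Klhdc2 and Il6ra, the last encoding the interleukin-6 receptor, fell by 2.08, 2.02 and 1.97 (adjusted p = 0.016, 0.0256 and 0.029). In cluster 2 cells alone their adjusted p-values were 0.0646, 0.122 and 0.128. CD8+ pool means of Klhdc2 were 0.235 to 1.33 (young) and 0.0410 to 0.232 (aged), without overlap, whereas those of Plac8 and Il6ra overlapped. Of the 7 tested genes of naive and lymph node homing cells, 1 fell, the transcription factor gene Klf2 (-1.01, adjusted p = 0.0471), with a list median of -1.01. Klf2 was also lower in aged CD8+ cells (5.51 young, 2.07 aged) and in microglia (29.4 and 19.97). Ccr7 (-1.75, adjusted p = 0.364) and Lef1 (-1.18, adjusted p = 0.0954) did not pass.

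**Figure D4:**
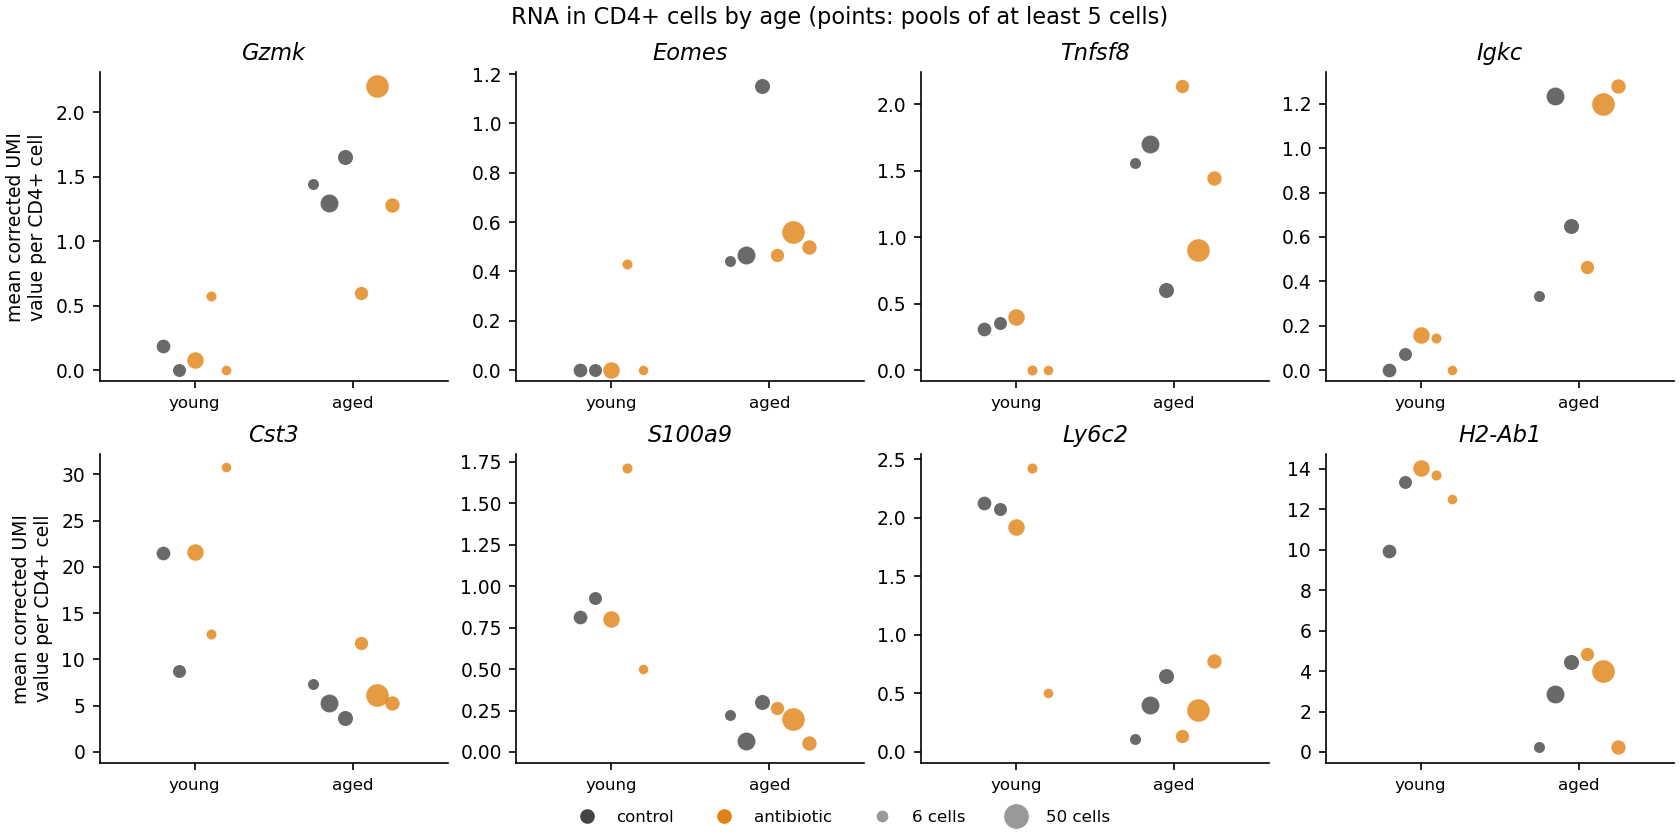
Mean corrected UMI value per CD4+ cell (y axis, linear) in 5 young and 6 aged pools for 4 genes that were higher (top row) and 4 that were lower (bottom row) in aged pools; each point is a pool, its area follows its number of CD4+ cells, grey is control and orange antibiotic. Gzmk, Eomes, Tnfsf8, Igkc, S100a9 and H2-Ab1 do not overlap between ages, whereas Cst3 and Ly6c2 overlap.

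Of the 5 tested genes of the ILC and natural killer list 1 fell, Tyrobp, a signalling adaptor of myeloid and natural killer cells (-1.22, adjusted p = 0.0256; 0.765 from cluster 2 cells alone). None of the 7 TCR-complex genes, the 6 CD4 helper genes, the 7 regulatory T cell genes, the 4 tested Th1 genes, the 3 tested checkpoint genes, the 7 tested cytokine genes, the 8 interferon response genes or the 7 proliferation genes passed in limma. Cd4 differed by 0.24 (adjusted p = 0.872), Cd40lg by 0.12 (adjusted p = 0.954), Ifng by 0.89 (adjusted p = 0.558), Foxp3 by -1.05 (adjusted p = 0.643) and Pdcd1 by 1.39 (adjusted p = 0.269).

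Whether CD4+ cells changed with age in another way than CD8+ cells was tested on the difference between the classes within each pool. Of 6767 genes none passed (0%), the lowest adjusted p in limma was 0.261, and 373 had an unadjusted p under 0.05. Among the genes of smallest p, none of them passing, were C1qb (-2.58), Adgrg1, an adhesion receptor (-2.38), and Hspa4l (-2.05), each with an adjusted p of 0.261. For Gzmk the age difference was 1.66 larger in CD4+ than in CD8+ cells on the log2 scale (adjusted p = 0.829), and for Eomes it was 2.48 larger (adjusted p = 0.576). The rise of these genes was therefore not shown to differ between the classes.

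With antibiotics, 4 genes changed in CD4+ cells over both ages, of 6317 tested (0.0633%), and 417 had an unadjusted p under 0.05. S1pr1, the receptor by which T cells leave lymph nodes and tissues toward sphingosine 1-phosphate in blood, fell. Tmem176a, Psap and Jaml rose. S1pr1 averaged 1.19 and 1.43 in the young control pools tested and 0.28, 0.429 and 1.5 in young antibiotic pools. In aged control pools it averaged 0.778, 0.7 and 0.9, and in aged antibiotic pools 0.6, 0.12 and 0.167. Aged control and aged antibiotic pools did not overlap, whereas young antibiotic 3, with 6 cells, was the highest young pool. The log2 difference was -1.76 (SE 0.33, limma adjusted p = 0.0285), and -1.80 from cluster 2 cells alone (adjusted p = 0.0114).

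Tmem176a, a membrane protein of intracellular vesicles, averaged 0.188 and 0.5 in young control and 0.88, 1.14 and 1.5 in young antibiotic pools. In aged pools it averaged 0.667, 0.233 and 0.65 in controls and 1.67, 1.24 and 0.944 with antibiotics, so that no control pool reached an antibiotic pool. The log2 difference was 1.55 (SE 0.29, adjusted p = 0.0285), and 2.70 from cluster 2 cells alone (adjusted p = 0.00292). In CD8+ cells, too, no control pool reached an antibiotic pool for Tmem176a, with the highest control pool at 0.194 and the lowest antibiotic pool at 0.197. Jaml, an adhesion molecule of leukocytes, was at 0, 0 and 0.15 in aged control pools of CD4+ cells and at 0.267, 0.66 and 0.278 in aged antibiotic pools. In young pools it overlapped, at 0.25 and 0.143 against 0.88, 0.143 and 0.667 (2.29, SE 0.46, adjusted p = 0.0451). Psap encodes a precursor of lysosomal saposins and is abundant in microglia (means of 12.1 and 11.8). In CD4+ cells it averaged 0.556, 1.3 and 1.1 in aged control and 1.93, 3.12 and 1.83 in aged antibiotic pools (1.19 over both ages, SE 0.23, adjusted p = 0.0285), and it did not pass in cluster 2 cells alone (0.86, adjusted p = 0.449).

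**Figure D5:**
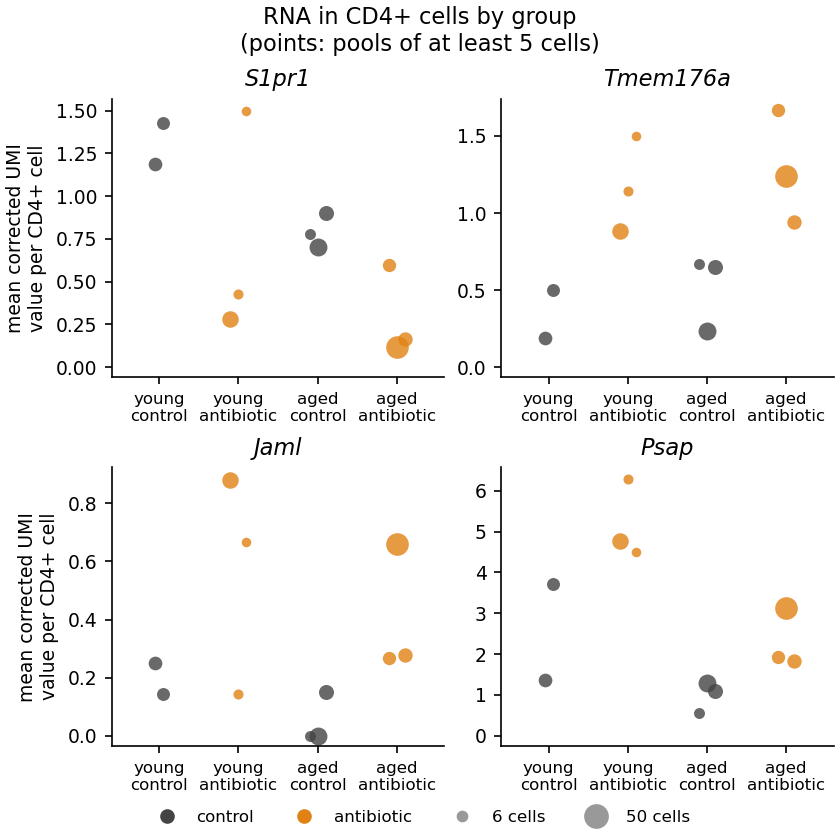
Mean corrected UMI value per CD4+ cell (y axis, linear) by group for the 4 genes that passed the antibiotic test; each point is a pool of at least 5 CD4+ cells (2 young control, 3 in every other group) and its area follows its number of cells. Tmem176a and Psap do not overlap between arms at either age, S1pr1 and Jaml do not overlap between arms in aged pools but do in young pools, and point sizes show that aged antibiotic 2, with 50 cells, carries the most weight.

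These 4 calls rested on single pools and on the weights. None remained when pools counted equally, and none when any 1 of aged antibiotic 2, aged control 1, aged control 2, young antibiotic 1, young antibiotic 2 or young control 1 was left out, while all 4 kept their direction each time. The fit from cluster 2 cells alone differed in its pools as well as in its cells. It held young antibiotic 1 as the only young antibiotic pool, so its results do not show the effect of the cells alone. From cluster 2 cells alone 10 genes passed, 3 of them among the 4, and among the others were Tmem176b, the paralog of Tmem176a (2.02, adjusted p = 0.00292), Vim, encoding vimentin (0.83, adjusted p = 0.0114), and S100a4 (1.33, adjusted p = 0.0114). S100a4, a calcium-binding protein of memory T cells, was at 1.11 with an adjusted p of 0.0956 over all CD4+ cells. Of the lists, naive and lymph node homing held 1 fallen gene of 7 (S1pr1, which is also in the chemokine and egress list, 1 of 8), and no other list held a call; the median over all genes was 0.06. All 8 microglial genes were positive without passing (median 0.42). Foxp3 (1.61, adjusted p = 0.588) and Tnf (1.34, adjusted p = 0.266) did not pass. In CD8+ cells the pool means of Jaml and Psap did not overlap between arms in young pools but did in aged pools. Those of S1pr1 overlapped between arms at both ages. Whether CD4+ and CD8+ cells differed in their change with antibiotics was not tested.

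No surface tag of CD4+ cells passed between antibiotic and control pools, of 31 tested (0%) with edgeR's quasi-likelihood test on summed tags. The 2 of smallest p were F4/80, a macrophage antigen (0.64, SE 0.20, adjusted p = 0.260), and CD4 itself (-0.22, SE 0.08, adjusted p = 0.265), and with PD-1 they made 3 tags at an unadjusted p under 0.05. DESeq2 on the same sums called 3 tags lower with antibiotics, CD4 (-0.36, adjusted p = 0.00222), CD3 (-0.48, adjusted p = 0.00538) and CD44 (-0.31, adjusted p = 0.0436). From cluster 2 cells alone edgeR called 1, CD45 (-0.21, adjusted p = 0.00683). Tags were not compared between ages, since well and tag depth differ with age.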

How the data were processed

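Per the submitters' processing notes, reads were processed with Cell Ranger 3.0.2 and Seurat 3.0.1 on build mm10. The authors deposited a score per gene and cell for 19848 genes, the corrected UMI value of SCTransform, which is not a raw count and was not treated as one. The deposited antibody table holds raw tag counts for 34 antibodies, and raw UMI counts per cell, classes, clusters and hashtag calls came from the deposited metadata, of which 32 columns went unused.

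Each pool counted as 1 replicate. Cells per class and tags summed per pool were tested with edgeR 4.0.16 (quasi-likelihood; DESeq2 1.42.0 as an alternative for tags). Mean RNA scores were tested with limma 3.58.1 on log2(mean + 0.05), for genes with a mean of at least 0.1 and pools with at least 5 CD4+ cells, weighted by cells. Fold changes on this scale understate changes of low genes. The threshold was a Benjamini-Hochberg adjusted p of 0.05. Tests ran in R 4.3.3, and the limma fit for age was tested on simulated data.

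Members and gene lists were chosen with earlier results of these data known. The text names up to 10 passing genes per direction with the largest change (the 4 of smallest p where none passed), up to 12 per direction between classes, and list members. A few genes that these rules name are not reported here.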

Additional observations from a re-analysis of the deposited data

Results flagged for a closer look

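Of 60 groups of pools looked at, 8 held a pool far from the others. The rule aimed at about 1 in 20 groups by chance. That rate need not hold for low means that rest on few cells, so 8 is not read as an excess. The CD4+ share of young antibiotic 1 was 3.21%, against 0.377 to 1.24% in the other young pools. Eomes RNA per CD4+ cell was 0.429 in young antibiotic 2, where 1 of 7 cells held it, against 0 in the other young pools. In aged control 3 Eomes was 1.15, against 0.444 to 0.56 in the other aged pools. Bcl2 was 3.77 in aged control 2, against 5.8 to 6.67. Rps27 was 44.98 in aged antibiotic 2, against 53.25 to 57.9. Ly6c2 was 0.5 in young antibiotic 3, a pool of 6 CD4+ cells, against 1.92 to 2.43. C1qb was 2.76 in aged antibiotic 2, against 0.556 to 1.06. Adgrg1 was 0.02 there, a value near the floor, against 0 in the other aged pools.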

How the results depend on the processing

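The lower CD4+ to CD8+ ratio with age kept its direction and passed the test in every alternative run (-1.87 to -1.45 with single pools left out). The age difference of the share ranged from 0.56 to 1.46 with single pools left out and passed only without young antibiotic 1 (1.46). The antibiotic difference of the share ranged from -0.20 to 0.70, that of the ratio from -0.42 to 0.0559, and the difference of the antibiotic effect on the share from -0.57 to 1.23 with single pools left out, so each changed sign; the last was 0.0439 from cluster 2 cells alone. The 30 genes called for age became 55 with a pseudocount of 0.5, 53 with no filter on low values, 55 with the mean of per-cell log values, 9 in pools of at least 10 cells, 4 in control pools only, 12 in cluster 2 cells alone, and 13 (without young antibiotic 1) to 70 (without aged antibiotic 2) with single pools left out, including 14 without young control 3 and 16 without each of young control 1, young antibiotic 2 and young antibiotic 3. The 4 genes called for antibiotics became 14 with no filter, 0 with equal weights, 8 with the mean of per-cell log values, 10 in cluster 2 cells alone and 0 to 9 with single pools left out (9 without young control 3, 7 without aged antibiotic 1, 6 without aged antibiotic 3, 2 without aged control 3, 1 without young antibiotic 3, 0 without each of the other pools tested). The class difference gave 1 gene with a pseudocount of 0.5, C1qb, and 0 to 1 with single pools left out (1 without aged antibiotic 2). Tags gave 3 calls with DESeq2, 1 in cluster 2 cells alone and 0 to 0 with single pools left out. The named age genes kept their direction and call in 275 of 377 alternatives and lost the call in 102. The named antibiotic genes did so in 35 of 72 and lost it in 37. No named gene changed direction. The cause of these changes was not tested. No analysis paired between ages or arms was possible because the pools of the groups compared share no replicate number in the labels. The age test of CD4+ against CD8+ cells was made on differences within pools. From 4 to 50 CD4+ cells per pool limit what can be seen.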
